A study of Mus musculus with 4 samples.

Results

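The nuclear-encoded subunits of mitochondrial respiratory complexes I to IV were followed in mouse embryonic fibroblasts with and without focal adhesion kinase (FAK), a tyrosine kinase that relays signals from integrins at sites of attachment to matrix. Members were chosen by gene symbol in the platform annotation (the Ndufa, Ndufb, Ndufc, Ndufs and Ndufv series followed by a digit, Uqcr, Sdha to Sdhd, and Cox4 to Cox8 followed by a, b or c), with no use of measured values. The rule found 62 genes of the 18194 that have at least 1 probe set of their own: 35 of complex I, 4 of complex II, 8 of complex III and 15 of complex IV. Each gene was read from its brightest own probe set, on a log2 scale. A level filter, the median of all deposited values (log2 8.90), had to be exceeded on at least 1 array. It kept 55 members (32, 4, 8 and 11 of complexes I, II, III and IV) and 12290 genes in all.

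The study crossed genotype, FAK +/+ (wild type) or FAK -/- (knockout), with treatment by endothelin-1 (ET-1), a peptide that acts through G protein-coupled receptors, and hybridised 1 Affymetrix mouse expression array for each of the 4 groups. All groups shared passage 5 cells, growth in 10% serum, and 24 h without serum before a further 24 h with or without ET-1. The ET-1 dose, the number of embryos behind each genotype and whether the cells were 1 line or several are not given in the labels. With 1 array a group, a difference between 2 arrays has no replicate error, and genotype cannot be told apart from other differences between the cultures.

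The respiratory chain sits in the inner mitochondrial membrane. Complex I takes electrons from NADH and complex II from succinate, ubiquinone carries them to complex III, cytochrome c carries them on to complex IV, and oxygen is reduced there to water. Complexes I, III and IV pump protons as they work, and ATP synthase uses the resulting gradient. Complexes I, III and IV each combine subunits encoded by mitochondrial DNA with the nuclear-encoded ones described here, whereas complex II is wholly nuclear-encoded. Fibroblasts in culture also draw heavily on glycolysis, and the genes of the respiratory chain are widely treated as housekeeping genes.

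Both arrays of ET-1-treated cells stood apart, each by another measure. In wild type with ET-1 the gap between the 3' and 5' control probe sets of Gapdh was 3.79 (log2), and elsewhere it was 0.85 to 0.90. For Actb that gap was 0.66 and 1.81 in wild type without and with ET-1, and 1.30 and 1.27 in the knockout, so the untreated pair differed by it too. In the knockout with ET-1 the 18 probe sets of the hybridisation spike-ins were lower, by a median of -0.30 against the untreated knockout and -0.35 against wild type with ET-1, where the median between the wild-type arrays was -0.02. Of 12 fibroblast markers, 11 passed the level filter and were tested. Limma (described below) called 7 lower and 1 higher in the knockout, where it called 13.6% of all genes in either direction. The log2 of the summed level of the 12 was 17.58 and 17.69 in untreated and ET-1-treated wild type. In the knockout it was 17.18 and 17.09. Dcn lay higher in the knockout, at 14.47 and 14.60 against 12.64 and 12.73 in wild type. Thy1 read 13.01 and 13.46 in wild type and 8.95 and 6.85 in the knockout, where Vim (called lower), Fn1 and Col3a1 read 14.16 or above. Of 8 epithelial markers, 7 were tested and 4 were called higher and 1 lower in the knockout, with summed levels of 13.40 and 13.16 in wild type and 14.56 and 14.17 in the knockout. Dsp, 1 of the 4, read 7.69 and 7.30 in wild type, under the level filter, and 9.55 and 9.70 in the knockout. It was thus tested only through the knockout. Epcam read 11.69 to 12.08 on the 4 arrays and Krt18 10.55 and 7.48 in wild type and 13.58 and 13.10 in the knockout. Krt19 lay the other way, at 11.43 and 11.40 in wild type and 8.86 and 7.99, under the level filter, in the knockout. Cdh1, the 1 marker of that list under the level filter on every array, read 5.74 to 5.95. Of 5 macrophage markers 2 were tested and 1 was called higher in the knockout. Of 5 endothelial markers 1 was tested and 0 were called. In such bulk RNA, fewer cells of a type and less RNA per cell cannot be told apart. The part of these differences in any value below was not tested.

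Promoter sequences from RefSeq (GRCm38.p6), 300 bases from 250 before to 50 after a gene's start, matched 51 of the 62 members with 53 windows. Transcription factors NRF1, GABP (an ETS factor) and YY1 are known regulators of many respiratory genes, so short forms of their motifs were searched on both strands. GCGCANGC, the core of the NRF1 motif, was found in 26.4% of member windows, 18.3% of the 12668 windows of genes kept by the level filter and 9.95% of all 32851 windows. CCGGAAG, the ETS motif, was found in 20.8%, 16.3% and 8.86%, and AAGATGGC, the YY1 motif, in 11.3%, 4.23% and 2.75%. TATAAA, the TATA box, was found in 13.2% of member windows, 7.79% of those of genes kept and 13.6% of all. The member windows include members under the level filter, so they are not a like set to those of genes kept. Among the TATA matches were Cox7b2 and Cox8b, both under the filter, and both windows of Ndufa7. At least 1 of NRF1, ETS and YY1 was present in 27 of the 53 windows (50.9%), against 33.4% of the windows of genes kept and 19.0% of all. A match is a string of letters and not a shown binding site.

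The promoters of 3 members whose values recur below are shown: Cox5b and Ndufb6, which had the highest genotype differences averaged over both treatment states, and Cox6a1, whose probe sets disagreed. Each line gives the 250 bases before the start, 5' to 3' on the gene's strand, with motif matches in capitals. Cox5b lies at chr1:36691237-36691486 on the plus strand, Ndufb6 at chr4:40279422-40279671 and Cox6a1 at chr5:115348959-115349208, both on the minus strand.
Cox5b: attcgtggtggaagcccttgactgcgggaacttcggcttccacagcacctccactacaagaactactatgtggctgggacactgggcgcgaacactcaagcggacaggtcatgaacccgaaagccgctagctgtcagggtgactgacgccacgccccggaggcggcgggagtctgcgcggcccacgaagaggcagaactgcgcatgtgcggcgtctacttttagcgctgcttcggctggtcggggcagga
Ndufb6: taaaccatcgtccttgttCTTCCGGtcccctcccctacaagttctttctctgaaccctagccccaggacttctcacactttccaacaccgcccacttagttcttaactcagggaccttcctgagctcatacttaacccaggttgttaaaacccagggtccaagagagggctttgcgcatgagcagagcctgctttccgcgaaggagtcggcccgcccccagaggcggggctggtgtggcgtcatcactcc
Cox6a1: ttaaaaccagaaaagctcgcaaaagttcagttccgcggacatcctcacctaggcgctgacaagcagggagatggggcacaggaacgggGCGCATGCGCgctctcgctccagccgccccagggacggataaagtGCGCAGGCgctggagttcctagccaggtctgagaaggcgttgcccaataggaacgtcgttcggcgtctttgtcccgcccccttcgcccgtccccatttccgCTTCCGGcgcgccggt
Cox6a1 held 3 matches to the NRF1 letters, of which a pair overlaps in the palindrome, and 1 ETS match that starts 16 bases before the start. Ndufb6 held 1 ETS match, 232 bases before the start. None of the 4 motifs was found in the Cox5b window.

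Loss of FAK went with small differences in the respiratory chain, against a background of large differences elsewhere. In untreated cells the 55 members ran from -0.32 (Cox6c) to 0.59 (Cox7c) on the log2 scale, knockout minus wild type, with a median of 0.10. None of the 55 reached 2-fold, where 9.37% of all genes kept did, and 1 reached 1.5-fold, where 20.0% did. In sign 34 members were above 0, against 53.0% of all genes. The SD over members was 0.21, against 0.68 over all genes. The other gene lists described below had SDs from 0.21 (cytosolic ribosomal proteins) to 0.43 (complex I assembly). None of their genes reached 2-fold, except 2.63% of the mitochondrial ribosomal proteins, so small differences were not particular to the respiratory chain. In level the members were bright, and 45 of the 55 read above 12 on every array. A narrower background was therefore added after seeing the data: the 3038 genes whose mean level lies between 11.92 and 14.16, the 10th and 90th percentiles of the members. In untreated cells 17.6% of them passed 1.5-fold, 58.6% were above 0 and their median was 0.08.

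After ET-1 the same members ran from -0.86 (Ndufa10) to 0.57 (Uqcrh), with a median of -0.21 against -0.03 for all genes and -0.07 for genes of like level. Again none reached 2-fold, against 12.1% of all genes. At 1.5-fold 6 members were lower and 0 higher in the knockout, where 13.3% of all genes were lower and 11.9% higher (25.2% in either direction, and 24.5% of genes of like level). In sign 36 members were below 0, against 53.5% of all genes and 56.1% of genes of like level. The 6 were Ndufa10, Ndufb5, Ndufb2, Ndufb8, Ndufb9 and Cox6c. This comparison uses the array with the large Gapdh gap, and the untreated comparison does not. The spike-ins differed by a median of -0.35 (-0.52 to -0.13) here and by -0.10 in untreated cells, and their part was not tested. Both genotype differences had the same sign in 28 members, 13 of them higher and 15 lower in the knockout, which is 50.9% of 55 against 71.8% of all genes. Another 21 were higher in the knockout when untreated and lower after ET-1. Averaging each gene's probe sets, or leaving out the probe set types that can match other transcripts, brought this median after ET-1 to -0.08, so its size depends on the probe sets read.

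**Figure D1:**
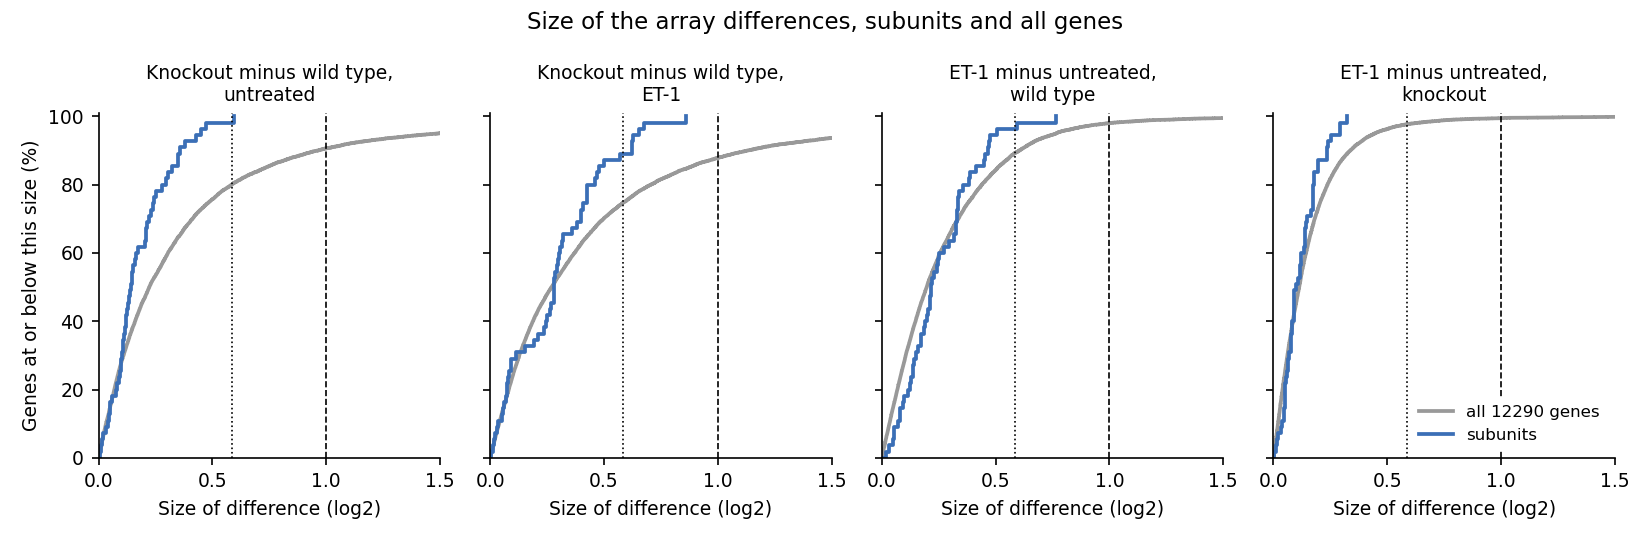
Cumulative percentage of genes (y axis) at or below each size of difference in log2 units (x axis), for 55 respiratory chain subunits (blue) and all 12290 genes (grey) in 4 comparisons of 2 arrays; dotted and dashed lines mark 1.5-fold and 2-fold. The blue curve reaches 100% before 2-fold in each panel, while 9.37%, 12.1%, 1.95% and 0.513% of all genes lie past it.

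Averaged over treatments, no member passed. With limma, a model with a genotype term and a treatment term was fitted across all genes, and 1677 of 12290 genes (13.6%) differed by genotype at an adjusted p under 0.05, against 0 of 55 members. At an unadjusted p under 0.05 there were 3 members, against 29.9% of all genes. Among genes of like level 7.67% passed. The only residual degree of freedom of this fit is the genotype by treatment term, so its errors do not measure the spread between cultures.

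Cox5b, a matrix-side subunit of complex IV, came nearest. It read 14.13 and 14.11 in untreated and ET-1-treated wild type and 14.60 and 14.51 in the knockout, so both knockout arrays lay above both wild-type arrays. The difference was 0.43 ± 0.09 (SE; limma adjusted p = 0.0543). All 5 of its probe sets above the level filter were higher in the knockout, by 0.46 to 0.71 untreated and 0.35 to 0.64 after ET-1. Cox6c, a membrane subunit of the same complex, lay the other way, at 14.01 and 14.22 in wild type and 13.69 and 13.60 in the knockout. Its difference was -0.47 ± 0.13 (SE; limma adjusted p = 0.103), and its dimmer probe set gave -0.02 untreated and -0.45 after ET-1. Ndufb6, an accessory subunit of the membrane arm of complex I, read 13.57 and 13.51 in wild type and 13.95 and 13.89 in the knockout. It differed by 0.38 ± 0.11 (SE; limma adjusted p = 0.119), and its second probe set gave 0.61 untreated and 0.15 after ET-1. When the 4 arrays were quantile normalised, Cox5b (0.43, limma adjusted p = 0.0148) and Cox6c (-0.49, 0.0269) did pass, so these calls turn on the scaling.

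**Figure D2:**
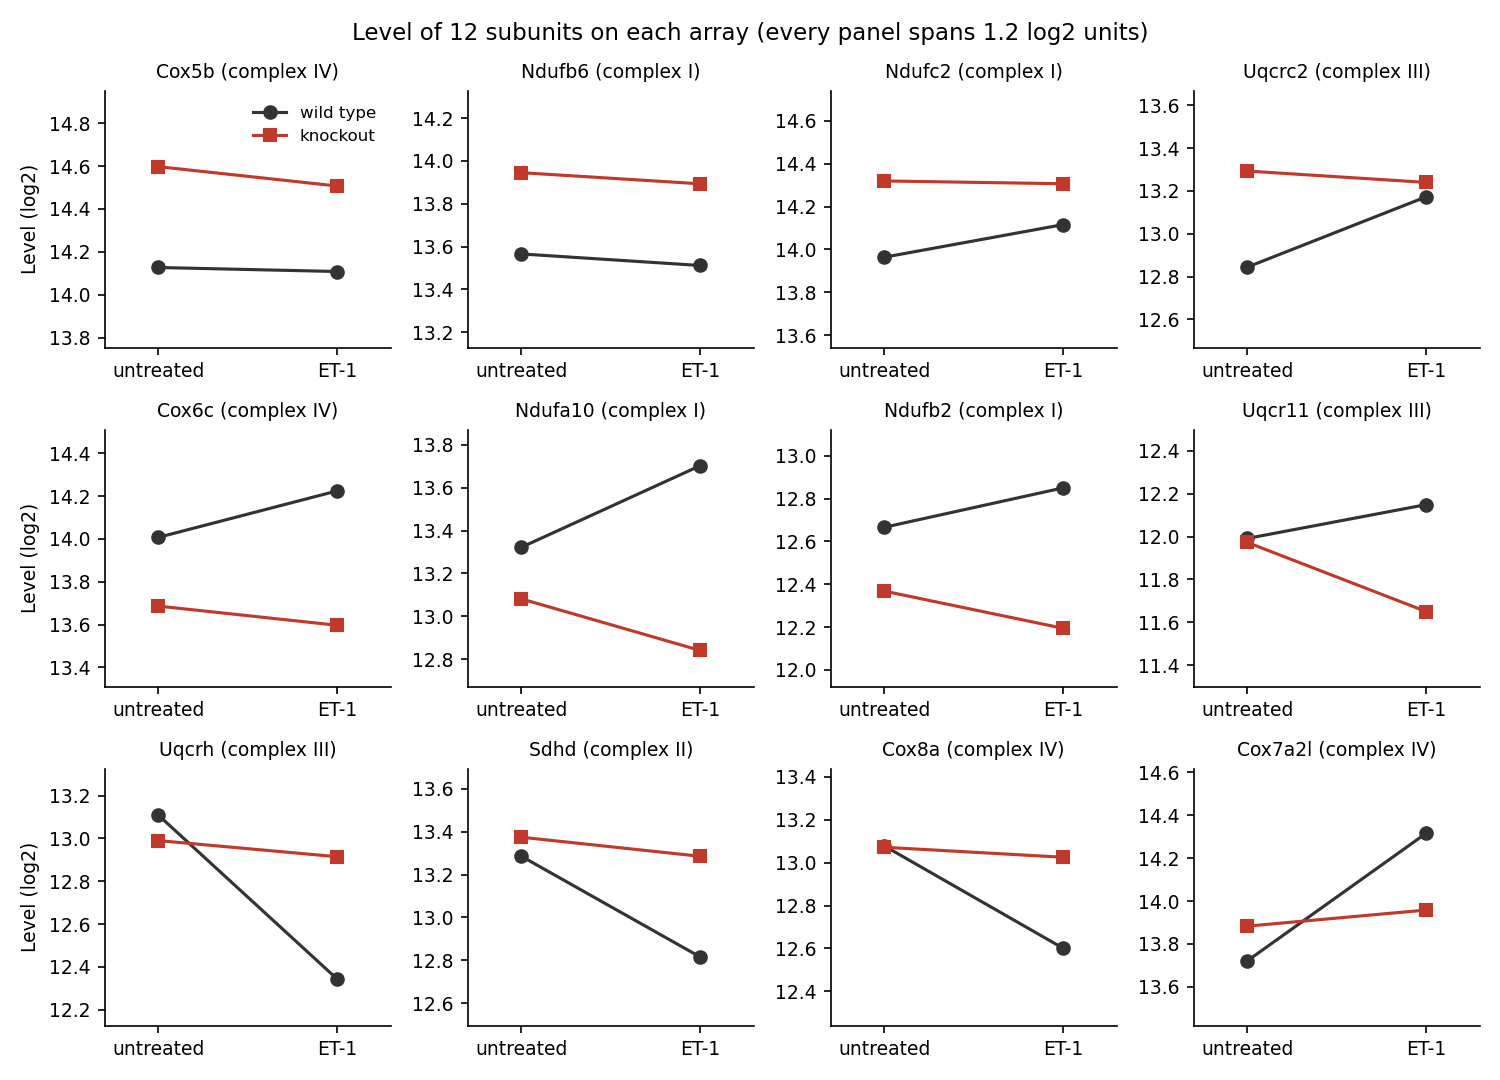
Deposited log2 level (y axis) of 12 subunits in untreated and ET-1-treated cells (x axis), wild type as black circles and knockout as red squares, 1 array per point and no error estimate. By the probe sets plotted, Cox5b and Ndufb6 keep a gap between genotypes in both states (0.47 and 0.40, 0.38 and 0.38), whereas Uqcrh, Sdhd and Cox8a are lower on the ET-1-treated wild-type array alone. The second probe set of Ndufb6, not plotted, gives 0.61 and 0.15.

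Complex I was read through 6 core subunits and 26 accessory ones above the filter. The core subunits hold the flavin and iron-sulfur clusters that pass electrons from NADH to ubiquinone. Median genotype differences over the 6 were 0.18 in untreated cells and -0.01 after ET-1. Ndufv1, which binds NADH, read 13.30 and 13.49 in wild type and 13.65 and 13.51 in the knockout, and its neighbour Ndufv2 read 13.62, 13.83, 13.85 and 13.78 in the same order. Both were higher in the knockout when untreated (0.35 and 0.23) and near wild type after ET-1 (0.02 and -0.05). Dimmer probe sets of Ndufv1 gave 0.02 and 0.43 after ET-1, and those of Ndufv2 0.07 and -0.09. Ndufs1, the largest iron-sulfur subunit, differed by 0.10 and 0.03. Ndufs3 was higher in the knockout in both states, by 0.22 and 0.41, whereas Ndufs7 (0.13 and -0.48) changed sign and Ndufs8 (-0.05 and -0.43) was lower in both. The dimmer probe set of Ndufs7 gave 0.06 and -0.04. Those of Ndufs8 gave -0.17 to 0.04 untreated and -0.43 to -0.19 after ET-1.

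Among accessory subunits, the Ndufb series builds the distal end of the membrane arm. Its 9 members above the filter had medians of 0.10 in untreated cells and -0.40 with ET-1, and 8 of the 9 were lower in the knockout after ET-1, where 53.5% of all genes and 56.1% of genes of like level were. Ndufb6 was the exception. Dimmer probe sets did not all share this sign, at 0.67 for Ndufb7, 0.07 for Ndufb2 and 0.004 for Ndufb11. Ndufb2 read 12.67 and 12.85 in wild type and 12.37 and 12.19 in the knockout, with both knockout arrays below both wild-type ones. Ndufb5 read 13.19, 13.51, 13.13 and 12.84 in the same order, and its genotypes stood apart by 0.67 after ET-1 but by 0.05 untreated. The 12 Ndufa members had medians of 0.07 and -0.29. Ndufa10 was the lowest of all members averaged over both states, at 13.32 and 13.70 in wild type against 13.08 and 12.84 in the knockout (-0.55 ± 0.21, SE; limma adjusted p = 0.178). Its dimmer probe set gave -0.07 and -0.39. Ndufs4, needed for a fully assembled NADH-binding module, differed by -0.31 in both states. Its dimmer probe sets above the filter gave -0.09 and -0.16 untreated and -0.80 and -0.49 after ET-1. Ndufa4, counted here by its symbol and since reassigned to complex IV, differed by -0.15 and 0.11. Ndufc2 was higher in the knockout in both (0.36 and 0.19), and its other probe sets above the filter gave 0.66 untreated and 0.61 and 1.41 after ET-1.

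Some complex I genes share probe sets with copies or neighbours and are read only jointly. The probe set shared by Ndufs6 and Ndufs6b gave 0.42 untreated and 0.15 after ET-1, knockout minus wild type. The brighter set shared by Ndufb4, Ndufb4b and Ndufb4c gave -0.14 and -0.65, and that of Ndufa11 and Ndufa11b -0.06 and -0.05. The dimmer shared sets gave -0.41 and -0.18 for the Ndufb4 genes and -0.18 and -0.02 for the Ndufa11 genes. The 1 set paired with Ndufb4 alone read 7.61 to 7.89, under the filter, as did Ndufb1 (7.93 to 8.45) and the hypoxia-induced paralog Ndufa4l2 (8.60 to 8.82).

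Complex II, succinate dehydrogenase, also serves the tricarboxylic acid cycle, and its 4 subunits differed by -0.12 to 0.13 between genotypes in untreated cells, with a median of 0.02 (-0.05 with quantile normalisation). The flavoprotein Sdha read 13.28 and 13.36 in wild type and 13.41 and 13.35 in the knockout. The iron-sulfur subunit Sdhb read 12.72 and 12.85 against 12.67 and 12.53, and the membrane anchor Sdhc 12.25 and 11.99 against 12.12 and 12.07. The second anchor, Sdhd, read 13.29 in untreated wild type, 12.82 after ET-1, and 13.37 and 13.29 in the knockout. Its genotype difference after ET-1 (0.47) thus came with a low reading in wild type with ET-1, and its dimmer probe set gave 0.30 untreated and -0.10 after ET-1.

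In complex III the 8 subunits had medians of 0.05 untreated (-0.01 with quantile normalisation) and -0.09 after ET-1 (0.07 without the less specific probe sets), so neither sign held under every setting. The core proteins parted: Uqcrc2 was higher in the knockout (12.84 and 13.17 in wild type, 13.29 and 13.24 in the knockout), and Uqcrc1 was lower when untreated (13.02 against 12.80) and within 0.08 after ET-1. The Rieske iron-sulfur protein Uqcrfs1 differed by 0.17 and -0.28. Uqcrb, named as the ubiquinone-binding protein, differed by 0.11 and 0.09, at readings of 14.73 to 14.87. The small subunit Uqcr11 was the lowest averaged over both states (-0.02 and -0.50). Uqcrh, the hinge protein that contacts cytochrome c1, read 13.11 in wild type without ET-1 and 12.34 with it, and 12.99 and 12.91 in the knockout. Its low value was again on the wild-type array with ET-1. The dimmer probe set of Uqcrh gave -0.27 for ET-1 in wild type and a genotype difference of 0.09 after ET-1. The size of its differences thus depends on the probe set read.

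Complex IV had the widest spread in untreated cells, from Cox6c at -0.32 to Cox7c at 0.59, with a median of 0.14 untreated and of -0.03 after ET-1 (0.01 and 0.06 by the mean of all probe sets). Cox7c, the only member past 1.5-fold there, read 8.43 and 8.94 in wild type and 9.02 and 8.92 in the knockout. The first of these readings is under the level filter of 8.90 and the others are just above it, so the value rests on a dim probe set. Cox6b1, on the side facing cytochrome c, was higher in the untreated knockout by 0.43 and lower by 0.01 after ET-1. Cox5a, another matrix-side subunit, differed by 0.14 and -0.06.

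**Figure D3:**
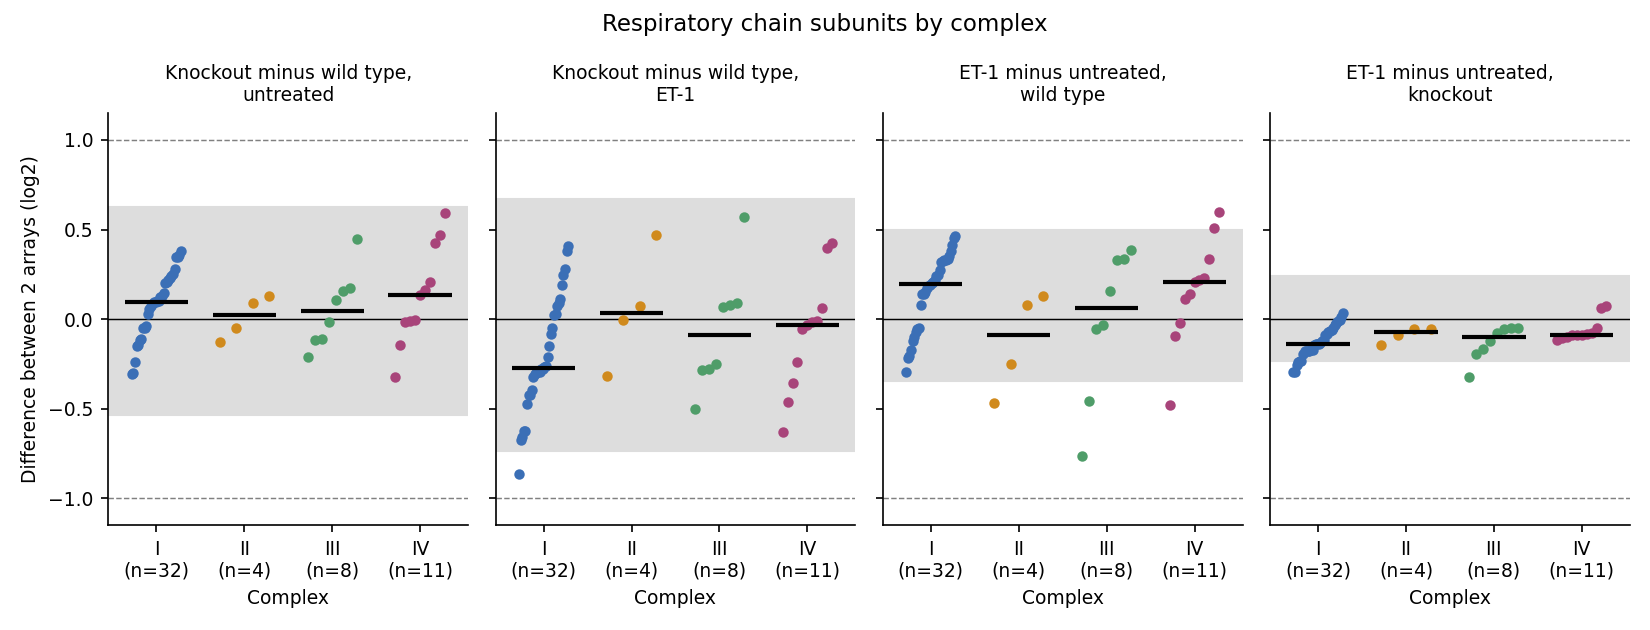
Difference between 2 arrays in log2 units (y axis) for each subunit above the level filter, by complex (x axis); points are genes, black bars are medians, the grey band spans the 10th to 90th percentile of all 12290 genes, and dashed lines mark 2-fold. No point passes 2-fold, complex I has the lowest median of the ET-1-treated genotype comparison (-0.27), and in the knockout after ET-1 nearly every point is below 0.

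Several complex IV subunits exist as isoforms that tissues use differently. The forms known from heart, skeletal muscle and brown fat were dim in these cells: Cox7a1 read 6.84 to 7.10, Cox8b 8.01 to 8.26 and Cox6a2 8.91 to 9.18. The testis forms Cox6b2 (7.90 to 8.10) and Cox7b2 (5.96 to 6.09) were under the filter on every array, as were Cox7a1 and Cox8b. Cox8c, another testis form, read 11.04 to 11.17, and its second probe set 10.97 to 11.12. The widespread forms read 14.02 to 14.48 (Cox6a1), 14.16 to 14.40 (Cox7a2), 13.86 to 14.29 (Cox6b1) and 12.60 to 13.08 (Cox8a). Probe sets differ in how brightly they read, so these ranges place each gene against the filter and do not rank the forms. None of the dim isoforms differed by more than 0.26 in any of the 4 comparisons. Of 13 muscle markers 7 were tested and limma called 0 for genotype, where it called 13.6% of all genes. Of 9 adipocyte markers 3 were tested, and 2 were called lower in the knockout (Fabp4 and Pparg). On each wild-type array 3 adipocyte markers were above the filter and on each knockout array 0. They were thus tested only through wild type, and a call of higher was hardly open to them. Ucp1 and Adipoq stayed under the filter on every array.

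In wild type, the 55 members had a median difference of 0.17, ET-1-treated minus untreated, and 37 of 55 (67.3%) were above 0. Among all genes 56.9% were above 0. Genes of like level had a median of 0.16, with 70.6% above 0, so the members lay close to other bright genes on this pair of arrays. Quantile normalisation brought the medians to 0.06 for members and 0.05 for genes of like level, of which 42.6% were then below 0 in place of 29.4%. The extremes were Cox7a2l at 0.60 and Uqcrh at -0.76, and 2 members in all passed 1.5-fold, against 10.7% of all genes and 10.3% of genes of like level. At 2-fold these were 0 members and 1.95% of all genes. Cox7a2l, a Cox7a relative found in supercomplexes of complexes III and IV, read 13.72 untreated and 14.32 after ET-1 in wild type, and 13.88 and 13.96 in the knockout. Its dimmer probe sets gave 0.53 and 0.18 in wild type, and the dimmer one of Uqcrh gave -0.27. The medians were 0.19 for complex I, -0.09 for complex II, 0.06 for complex III and 0.21 for complex IV, and the value for complex III went to -0.04 without the less specific probe sets and -0.01 with quantile normalisation.

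Probe sets of the same gene parted company on that array. In 36 members with at least 2 probe sets above the filter, the highest and lowest probe set differed by a median of 0.13 in the untreated genotype comparison and 0.09 in the ET-1 comparison of the knockout. The median was 0.40 in the ET-1 comparison of wild type and 0.41 in the genotype comparison after ET-1, the pair of comparisons that use the wild-type array with ET-1. All genes showed the same order, with medians of 0.27, 0.19, 0.43 and 0.45 over 5240 genes. For Cox6a1 the bright probe set read 14.25 untreated and 14.48 after ET-1 in wild type, and the dimmer one 12.79 and 11.56. The gene's ET-1 difference was thus 0.23 by 1 probe set and -1.22 by the other, while both gave -0.09 to -0.13 in the knockout. Ndufb7 was split in the same way, at 0.14 and -0.99, and Ndufc2 at 0.15 and -0.85. The range exceeded 1.5-fold in 9 of the 36 in the ET-1 comparison of wild type (25.0%) and in 0 of 36 in the untreated genotype comparison, where 34.1% and 21.1% of all genes did. The median range of 0.40 exceeds the members' median difference of 0.17 in that comparison.

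**Figure D4:**
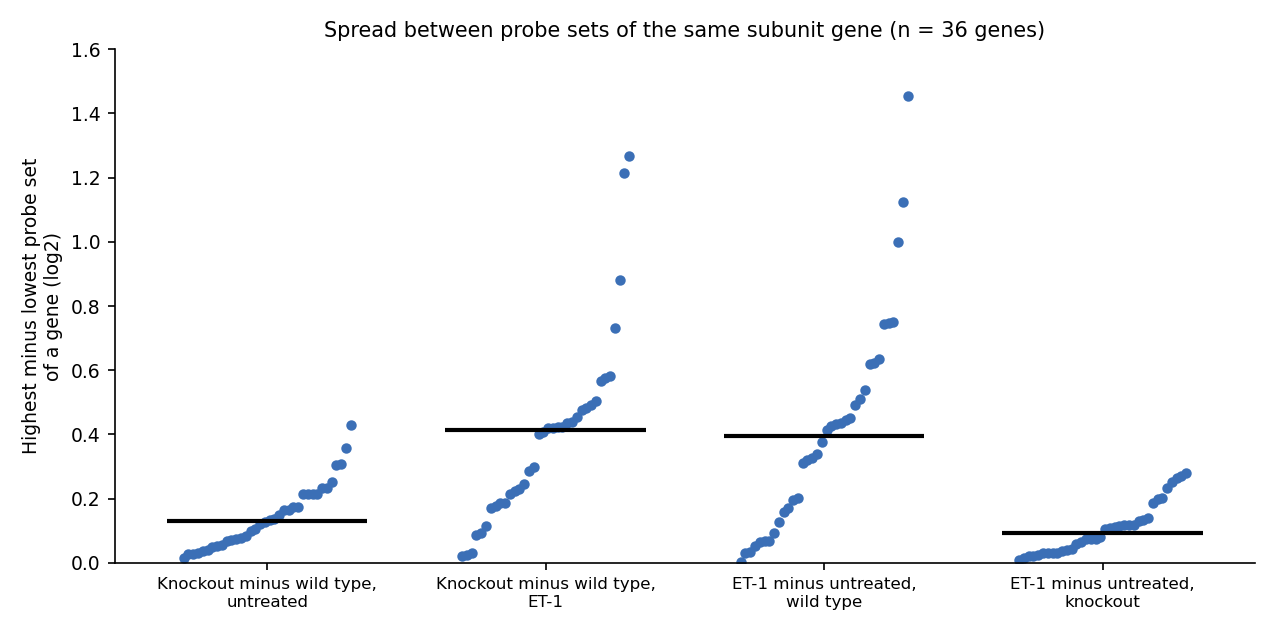
Highest minus lowest probe set difference of a gene in log2 units (y axis) in each of 4 array comparisons (x axis), for 36 subunit genes with 2 or more probe sets above the level filter; points are genes and black bars medians. Medians are 0.13 and 0.09 in the comparisons that leave out wild type with ET-1 and 0.41 and 0.40 in those with it.

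In the knockout the ET-1 differences were small, narrow and mostly in 1 direction. They ran from -0.32 (Uqcr11) to 0.08 (Cox7a2l), with a median of -0.10, against -0.02 for all genes and for genes of like level. Of the 55 members, 51 were below 0 (92.7%), against 55.3% of all genes and 54.2% of genes of like level. No member reached 1.5-fold, against 2.33% of all genes and 0.856% of genes of like level, and 0.513% of all genes reached 2-fold. The 4 members above 0 were Cox6a2, Cox7a2l, Ndufa6 and Ndufv3, each by 0.08 or less. Medians were -0.14, -0.07, -0.10 and -0.09 for complexes I to IV, and all members of complexes II and III were below 0. Over the other settings tried, the share below 0 was lowest with quantile normalisation (49 of 55). It was highest with array medians subtracted (52 of 55). The hybridisation spike-ins, control transcripts added at hybridisation, also differed here, by a median of -0.30 (-0.40 to -0.06). Their part in the members' difference was not tested.

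Averaged over genotypes, limma called 0 of 12290 genes for ET-1 (643, or 5.23%, had an unadjusted p under 0.05), and 0 of 55 members (background 0%), with none at an unadjusted p under 0.05 either. The lowest adjusted p among members was 0.78. The difference of the ET-1 differences, knockout minus wild type, had a median of -0.31 over members (-0.07 over all genes and -0.17 over genes of like level). It was below 0 in 44 of 55 (80.0%), against 59.7% of all genes and 69.2% of genes of like level, and ran from -0.62 (Ndufa10 and Ndufb5) to 0.69 (Uqcrh). No test of it is possible with 1 array a group.

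Other mitochondrial genes were read from lists of gene names. Of 13 electron carriers and partner proteins outside the rule, 0 passed limma for genotype, where 13.6% of all genes did, the share against which the counts of the lists that follow are read. Cox4i1, the widespread form of the complex IV subunit that the rule does not match, differed by 0.07 untreated and -0.11 after ET-1. Cycs, cytochrome c itself, differed by 0.03 and -0.22, and Cyc1, the cytochrome of complex III, by -0.14 and -0.45. Ndufab1, the mitochondrial acyl carrier protein in complex I, read 12.09 and 12.16 in wild type and 12.79 and 12.71 in the knockout, and the difference did not pass (0.63 ± 0.17, SE; limma adjusted p = 0.0928).

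Of 18 ATP synthase genes 1 rose, Atp5e (epsilon subunit, 0.76 ± 0.14, SE; limma adjusted p = 0.0474). Atp5g2, which encodes the c-ring subunit, had an ET-1 difference of -1.63 in wild type, on the array with the large Gapdh gap, and of -0.21 in the knockout. Complex I assembly genes stood highest of the lists in the knockout, with medians of 0.33 untreated and 0.22 after ET-1 over 13 genes. One of these passed, the assembly factor Ndufaf3, which was higher by 0.75 ± 0.09 (SE; limma adjusted p = 0.0179), at 8.95 and 8.78 in wild type, around the filter, and 9.72 and 9.52 in the knockout. Ndufaf4, which acts with it, read 11.99 and 11.98 in wild type and 12.95 and 12.45 in the knockout (limma adjusted p = 0.111). Of 26 assembly genes for complexes II to IV, 2 rose and 0 fell (13.6% of all genes passed): Uqcc3, for complex III (0.78, limma adjusted p = 0.0404), and Cox16, for complex IV (0.61, limma adjusted p = 0.0378). Without the level filter Atp5e, Uqcc3 and Cox16 no longer passed (limma adjusted p = 0.067, 0.0668 and 0.0595). Cox16 also missed without the intensity trend (0.0675). The lists were not compared by a test.

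In the tricarboxylic acid cycle list 1 of 15 genes fell, Ogdh, the first subunit of oxoglutarate dehydrogenase, by 0.71 (limma adjusted p = 0.04997). That call was lost without the level filter (limma adjusted p = 0.0735) and without the less specific probe sets (0.0554). Of 12 regulators of mitochondrial biogenesis 0 passed. Tfam, which packages mitochondrial DNA and helps start its transcription, read 11.68 and 11.93 in wild type and 12.35 and 12.34 in the knockout (limma adjusted p = 0.142). Of 76 mitochondrial ribosomal protein genes 1 fell, Mrps6, which read 13.67 and 13.92 in wild type and 12.44 and 12.21 in the knockout (-1.47 ± 0.19, SE; limma adjusted p = 0.0203). That list was 64 of 76 above 0 in the untreated knockout, against 53.0% of all genes, and 70 of 76 below 0 in the knockout after ET-1, against 55.3% of all genes, with a median of -0.19. Of 47 genes with cytosolic ribosomal protein symbols, a pattern that also takes in kinases such as Rps6ka5, 0 passed, and the median in the knockout after ET-1 was -0.04.

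**Figure D5:**
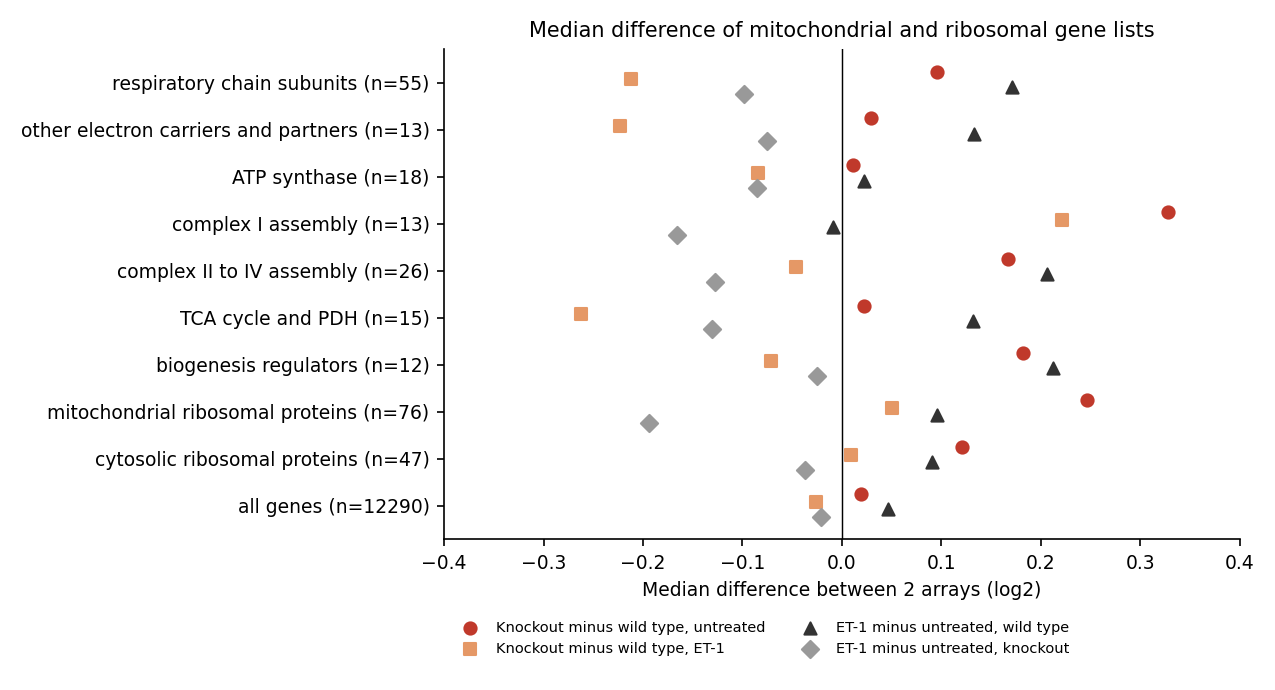
Median difference between 2 arrays in log2 units (x axis) for the respiratory chain subunits, other gene lists and all genes (y axis, with the number of genes), 1 symbol per comparison and no error estimate. In the knockout after ET-1 each list lies below 0, from -0.02 for biogenesis regulators to -0.19 for mitochondrial ribosomal proteins, and complex I assembly genes have the highest medians of both genotype comparisons (0.33 and 0.22).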

How the data were processed

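The authors deposited 1 log2 value per probe set and array (4 arrays). The submitters' processing notes name RMA, with its version and the genome build not given in the sources used here. The values run from 5.00 to 15.24, with array medians of 8.89 to 8.92. Probe sets (45101) were named through the platform annotation: 34958 have 1 gene, 932 several, and 9211 are unlisted. Values were used as deposited. Per gene, the brightest own probe set was taken, and genes were kept if above the overall median on at least 1 array. The additive model used limma 3.58.1 (intensity trend, Benjamini-Hochberg over 12290 genes) in R 4.3.3 and was tested on simulated data. Other steps used Python 3.11.15, pandas 2.3.3 and matplotlib 3.10.9. Sequences were cut from RefSeq tables. With 1 array a group, precision is limited by array number, and FAK's own values are not analysed here. The members, lists and tests were chosen with earlier results of these data known. Named are members past a test, at the ends of each complex, tissue isoforms and core subunits, and up to 3 highest and 3 lowest of each other list, not all of them printed. Further members were named after their values were seen. Probe set choice, probe set type, array scaling, level filter and eBayes options were varied.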

Additional observations from a re-analysis of the deposited data

Results flagged for a closer look

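The ET-1 difference pointed in opposite directions in the genotypes for several results, each resting on 1 array a group, and none of these differences was tested. The median over all 55 members was 0.17 for wild type and -0.10 for the knockout. It was 0.19 and -0.14 for complex I, 0.064 and -0.10 for complex III and 0.21 and -0.09 for complex IV. All genes had medians of 0.05 and -0.02, and genes of like level 0.16 and -0.02. Opposite signs were thus not particular to the members. For complex III the wild-type value was -0.0417 without less specific probe sets and -0.0108 with quantile normalisation, so both genotypes were then below 0. The ET-1 differences of the genotypes were at least 1.5-fold apart, in either direction, in 5 of 55 members (9.09%). That held for 12.4% of all genes and 11.1% of genes of like level. Among members whose ET-1 differences were opposite and at least 1.5-fold apart, Cox7c was at 0.51 and -0.11, Ndufa10 at 0.38 and -0.24, Ndufb5 at 0.33 and -0.29, and Ndufs7 at 0.35 and -0.25. By their dimmer probe sets, Ndufs7 gave -0.08 and -0.18, Ndufb5 0.0091 and -0.27, and Ndufa10 0.31 and -0.0066. All of these wild-type values use the array with the large Gapdh gap, whose part was not tested.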

How the results depend on the processing

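Of 176 comparisons of a median or count with its value under another setting, 159 stayed within 0.1 (log2) or 1.5 times the count. Several medians are smaller than 0.1, so a value could change sign and still count as staying, and counts of 0 that stayed 0 are included. In the untreated genotype comparison complex II went from 0.0206 to -0.0535 with quantile normalisation. In the ET-1-treated one complex IV went from -0.0336 to 0.0602 with the mean of all probe sets. At 1.5-fold in place of 2-fold, 1, 6 and 2 members passed in the untreated genotype, ET-1-treated genotype and wild-type ET-1 comparisons. Without less specific probe sets 1 member reached 2-fold in the ET-1-treated genotype comparison, whose median was -0.0841 (also with the mean of all probe sets), and complex III was at 0.0719 there and at -0.0417 after ET-1 in wild type. With the mean of all probe sets complex I was at -0.130 and complex II at 0.138 in the ET-1-treated genotype comparison, and complex IV at 0.0123 in the untreated one. Quantile normalisation brought the wild-type ET-1 medians to 0.0631 for members, 0.078, -0.189 and 0.0981 for complexes I, II and IV, and the difference of ET-1 differences to -0.183, and 2 members then passed for genotype. The cause was not tested. No paired analysis was possible because each group has 1 array, and leaving out an array would leave the model no residual degree of freedom.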
